A study of Mus musculus with 30 samples.

Results

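The DNA replication genes are 44 listed genes that act in or before S phase, chosen by name and matched to Ensembl identifiers through GENCODE M21. All 44 were found among the 45706 genes of the 5 deposited tables. All 44 also passed the filter of a mean of at least 1 TPM (transcript share of a library, corrected for gene length) over the 30 libraries, which left 12614 genes to test. They were sorted into 9 roles. There were 5 origin recognition and licensing factors, 6 MCM helicase subunits, and 6 CDC45, GINS and MCM10 genes. Further roles held 6 genes of the sliding clamp and its loader, 9 polymerase and primase subunits, and 4 enzymes of nucleotide supply. The rest were 2 of flap removal and ligation, 2 subunits of RPA, and a group of 4 (2 cyclin E genes, E2f1 and Uhrf1).

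The RNA came from mouse osteoclast cultures. Osteoclasts are the bone-resorbing cells that form by fusion of macrophage precursors. Macrophages were derived from the bone marrow of C57BL/6J mice and placed on slices of bone; RANKL was given at 100 ng/ml and M-CSF at 25 ng/ml. Mice were Terc-/-, lacking the RNA template of telomerase, or wild type. Cultures were harvested either after 2 days or at a later, undated point, when large multinucleated cells had appeared; both kinds are called by that harvest here. There were 10 groups of 3 libraries. The Terc-/- groups were large-cell cultures from 6-month mice with the word 519 in their titles, 6-month mice without it, 1-month mice with 519 and 1-month mice without it. The wild-type large-cell groups were 1-month mice with the word gaiwei in their titles, and 1-month, 6-month and 20-month mice with no such word. The wild-type 2-day groups were 20-month and 6-month mice. The labels do not explain 519 or gaiwei, the breeding generation of the Terc-/- mice, or whether the 3 libraries of a group come from separate animals or cultures, so p-values measure only the spread between these libraries, which may be technical. Library depth is unknown because only TPM were analysed.

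Facts about the libraries bear on what follows. TPM were set per library, and each age and genotype comparison sets libraries of different deposited tables side by side; the comparisons of large cells with 2 days and of marked with unmarked groups each lie within 1 table. Among wild-type large cells of 6 months, replicate 2 was unlike the rest, with only 2389 TPM of the mitochondrial transcript mt-Co1, against 20009 and 22525 TPM in replicates 4 and 1. The unmarked 1-month wild-type libraries had Xist at 46.6 to 84.1 TPM, against at most 0.254 TPM in the other 27, and no Eif2s3y, so every comparison against them also compares libraries with and without a Y-linked transcript. Terc was at 0 in every Terc-/- library and also in most wild-type ones, and so did not check the genotype labels. Genes that mark the cells, as summed TPM of a marker list, are given beside each result they move with. The T and NK cell and the erythroid lists had no marker with a group mean of at least 1 TPM in any group.

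Before S phase, the origin recognition complex, CDC6 and CDT1 load the ring of MCM helicase subunits onto DNA. CDC45 and GINS then start the helicase, primase and the polymerases copy the strands on the PCNA clamp, RPA covers single-stranded DNA, and FEN1 and LIG1 join the lagging-strand pieces. Many of these genes are known targets of E2F transcription factors, which RB proteins hold back in resting cells, and osteoclast precursors are known to divide under M-CSF and to leave the cell cycle before or as they fuse.

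Promoters are shown because most of these genes moved together in 20-month cells and E2F factors are known to bind many of their promoters. RefSeq windows (GRCm38.p6, 300 bases around a start) were given for 36 of the 44 genes, as 43 windows; Gins1, Gins2, Gins4, Ccne2, Prim2, Mcm4, Pole and Rfc2 had none. The 4 E2F spellings TTTCCCGC, TTTCGCGC, TTTGCCGC and TTTGGCGC, searched on both strands, occurred in 15 of 36 genes (41.7%) and 15 of 43 windows (34.9%), against 744 of 32851 windows (2.26%) of the whole table. CCAAT, on both strands, occurred in 22 of 36 genes (61.1%) and 58.1% of their windows, against 37.4% of all windows. TTTGAA, a core spelling of the CHR element, occurred in 5 of 36 genes (13.9%) and 11.6% of their windows, against 17.9% of all windows. Uhrf1 at chr17:56304063-56304362 (plus strand), Cdc6 at chr11:98907901-98908200 (plus strand) and Mcm5 at chr8:75109259-75109558 (plus strand) hold E2F letters. Of the genes with such letters, these fell most between 2 days and large cells at 20 months, and each is shown by its first window with the letters. The Uhrf1 and Cdc6 windows begin inside the annotated genes, which start at 56303321 and 98907801. Rrm2 at chr12:24708004-24708303 (plus strand) holds CCAAT and none of the 4 E2F spellings. Capitals mark E2F letters or CCAAT; in Mcm5 a pair of E2F spellings on opposite strands overlap.
Uhrf1: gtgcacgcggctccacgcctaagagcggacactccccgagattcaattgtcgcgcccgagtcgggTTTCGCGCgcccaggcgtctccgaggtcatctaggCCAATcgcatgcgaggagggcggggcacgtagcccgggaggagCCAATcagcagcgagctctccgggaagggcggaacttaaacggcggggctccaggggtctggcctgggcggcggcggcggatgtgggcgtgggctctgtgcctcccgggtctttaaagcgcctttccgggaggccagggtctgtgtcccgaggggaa
Cdc6: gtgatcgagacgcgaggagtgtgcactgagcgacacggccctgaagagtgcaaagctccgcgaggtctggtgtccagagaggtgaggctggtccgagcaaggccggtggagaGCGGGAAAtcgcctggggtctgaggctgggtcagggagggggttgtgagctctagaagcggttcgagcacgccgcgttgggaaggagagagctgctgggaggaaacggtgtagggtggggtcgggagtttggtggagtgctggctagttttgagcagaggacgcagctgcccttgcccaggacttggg
Mcm5: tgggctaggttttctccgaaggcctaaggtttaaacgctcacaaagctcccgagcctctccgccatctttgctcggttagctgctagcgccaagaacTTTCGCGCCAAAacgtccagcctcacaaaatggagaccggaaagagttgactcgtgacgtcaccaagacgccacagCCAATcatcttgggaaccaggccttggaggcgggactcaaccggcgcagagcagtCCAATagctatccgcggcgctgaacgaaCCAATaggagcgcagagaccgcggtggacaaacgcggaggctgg
Rrm2: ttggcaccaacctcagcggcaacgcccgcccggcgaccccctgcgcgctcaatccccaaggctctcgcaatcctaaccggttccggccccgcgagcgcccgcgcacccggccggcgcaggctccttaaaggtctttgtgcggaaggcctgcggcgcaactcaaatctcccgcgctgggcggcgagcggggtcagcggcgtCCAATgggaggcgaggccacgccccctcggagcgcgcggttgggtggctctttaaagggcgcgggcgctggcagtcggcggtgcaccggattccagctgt
A match describes letters, not a binding site, and no match says only that these letters are not in this window. The median log2 change between large cells and 2 days at 20 months, described next, was -1.32 over the 15 genes with E2F letters, -1.28 over the 21 with a window and no such letters, and -1.39 over the 8 without a window.

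In 20-month wild-type mice, large-cell cultures had far lower levels of nearly all replication genes than 2-day cultures. A gene counts as called when limma's Benjamini-Hochberg adjusted p, taken over all 12614 genes, is under 0.05. Of the 44 genes, 40 fell and 0 rose, where 36.2% of all tested genes were called, 18.7% higher and 17.5% lower. The median log2 change was -1.30 over the 44 genes and 0.0036 over all tested genes. The fall reached every role. It took in 4 of 5 licensing genes, 6 of 6 MCM subunits, and 6 of 6 CDC45, GINS and MCM10 genes. Also called were 5 of 6 clamp genes, 7 of 9 polymerase and primase genes, and 4 of 4 nucleotide genes. Both genes of flap removal and ligation, both RPA subunits, and 4 of 4 in the group of cyclin E, E2f1 and Uhrf1 fell too. Those not called were Cdt1 (-0.40), Pold2 (-0.40), Pold3 (-0.35) and Rfc2 (0.17). Leaving out any 1 of the 6 libraries left 38 or 39 genes called.

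**Figure D1:**
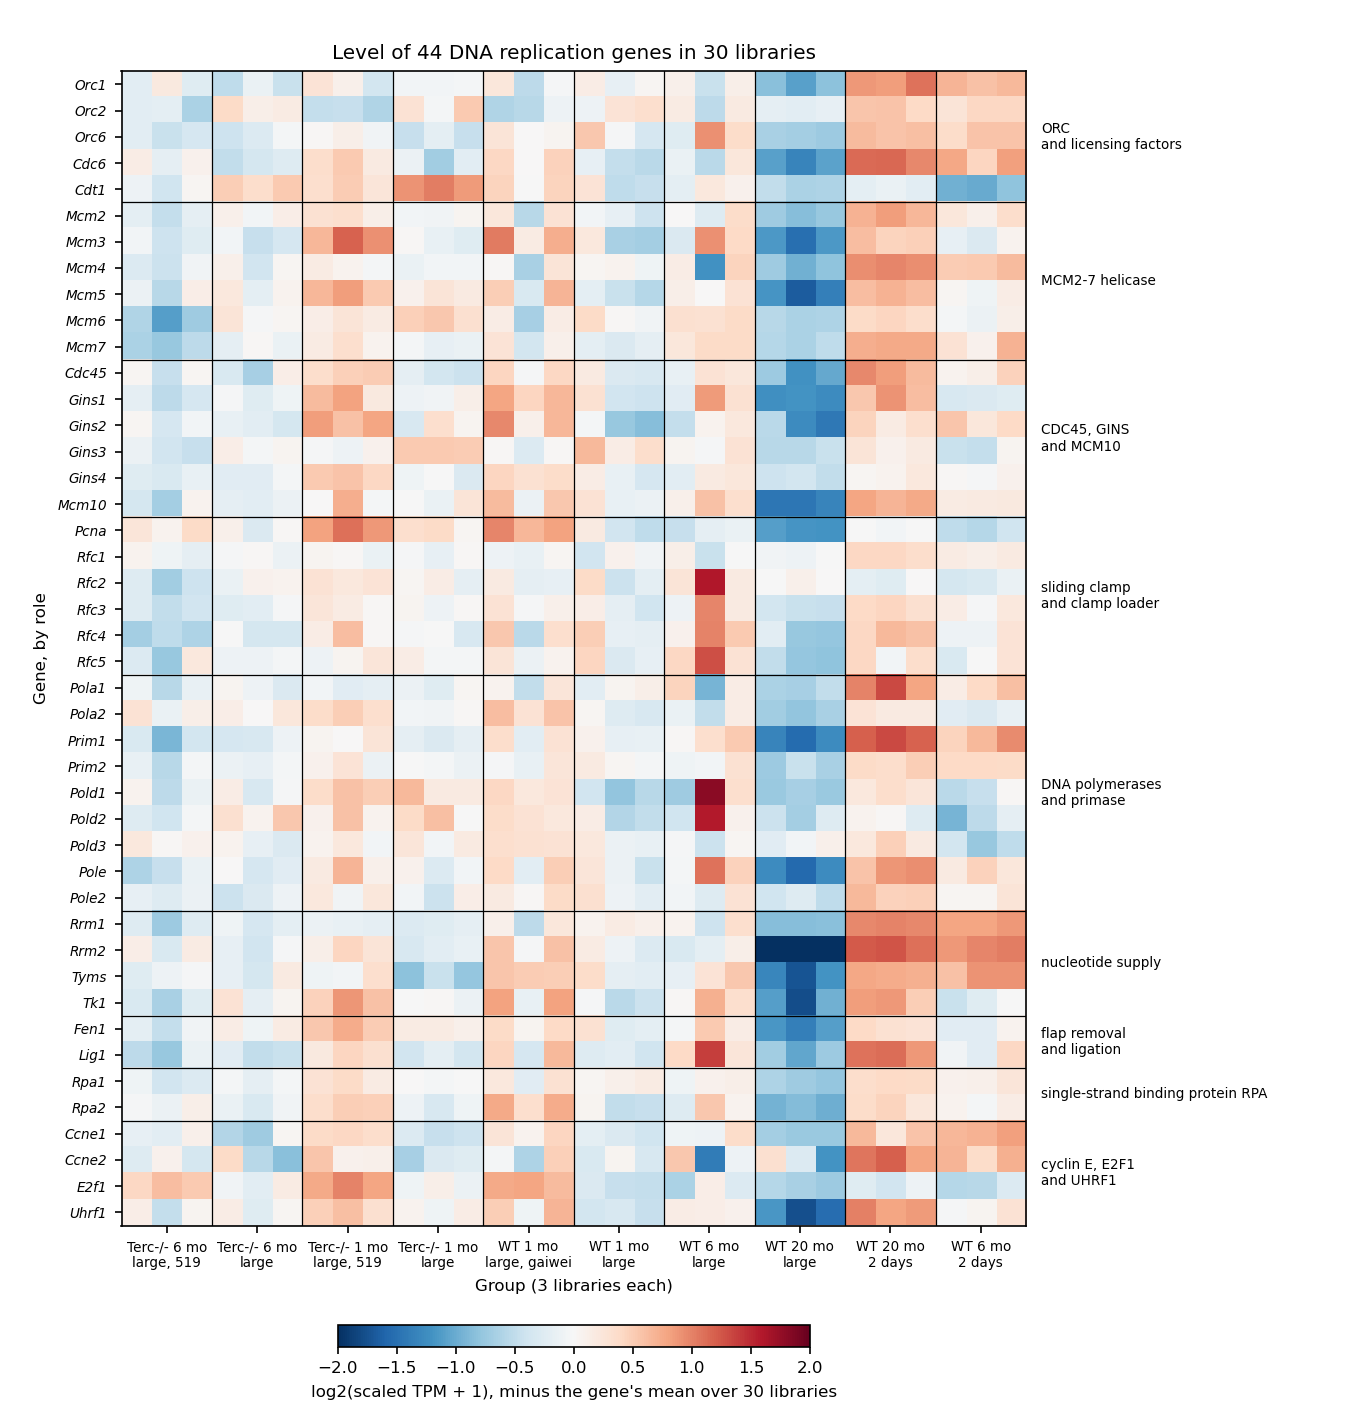
Heat map of the 44 genes (rows, by role) in 30 libraries (columns, 3 a group), as log2(scaled TPM + 1) minus the mean of that gene over all libraries, with the colour scale ending at -2 and 2. The 20-month wild-type large-cell columns are blue in nearly every row and the 20-month 2-day columns red in most, while in 6-month wild-type large cells the middle column is dark red for Rfc2, Pold1 and Pold2.

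By role, the 4 enzymes that make DNA building blocks had the most negative median log2 change (-2.08). Rrm2 (ENSMUSG00000020649, chr12:24708241-24714146, plus strand), the small, cell cycle-regulated subunit of ribonucleotide reductase, had 10.6, 8.38 and 11.3 TPM in 20-month large cells, against 127, 131 and 114 TPM at 2 days. The 2 groups lay far apart, and the log2 change of -3.36 ± 0.16 was the largest fall of any of the 44 (limma, adjusted p = 3.17e-13). Tyms, thymidylate synthase, was at -2.15 ± 0.18, Tk1, the cytosolic thymidine kinase, at -2.01 ± 0.24 and Rrm1, the large reductase subunit, at -1.82 ± 0.16.

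Among licensing factors the loaders and origin proteins fell but Cdt1 did not pass. Cdc6 had 2.00, 1.47 and 2.05 TPM in 20-month large cells, against 14.7, 15.2 and 12.6 TPM at 2 days, a log2 change of -2.24 ± 0.18. Orc1 fell by 1.84 and Orc6 by 1.29 on the log2 scale, and Orc2 by 0.69. Cdt1 (chr8:122568015-122573554, plus strand) had 16.95, 14.9 and 15.5 TPM in 20-month large cells, against 22.8, 24.4 and 22.2 TPM at 2 days. Its large-cell values lay below the 2-day ones in every library, but the change of -0.40 ± 0.16 missed the threshold (limma, adjusted p = 0.0574).

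All 6 MCM subunits fell, by -0.99 to -2.05 on the log2 scale. Mcm6 (chr1:128331590-128359664, minus strand), the most abundant subunit, had 43.1, 39.7 and 41.5 TPM in 20-month large cells, against 91.1, 95.5 and 87.1 TPM at 2 days, and showed the smallest change of the 6. Mcm5 had 9.46, 6.26 and 8.25 TPM in large cells, against 39.0, 42.0 and 38.2 TPM at 2 days, the largest change of the 6. For both genes the groups did not overlap. Of the helicase activators, Mcm10, which helps start unwinding, fell by 2.14 and Gins1 by 1.90 on the log2 scale. Gins4 (chr8:23226616-23237659, minus strand), a subunit of the same ring as Gins1, had 22.4, 22.4 and 21.2 TPM in large cells, against 33.5, 35.1 and 37.1 TPM at 2 days, a smaller change of -0.53 ± 0.12.

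At the fork, Pcna (chr2:132249162-132253314, minus strand), the sliding clamp and the most abundant of the 44, had 84.7, 77.5 and 79.7 TPM in 20-month large cells, against 198, 194 and 194 TPM at 2 days (log2 change -1.14 ± 0.15). Rpa1 (chr11:75298166-75348324, minus strand), the large RPA subunit, had 34.2, 31.0 and 30.8 TPM in large cells, against 73.3, 77.8 and 73.9 TPM at 2 days (-1.08 ± 0.11). Both groups stood apart in every library for both genes. Lig1 (chr7:13277283-13311433, plus strand), the replicative DNA ligase, had 16.9, 12.7 and 16.6 TPM in large cells, against 66.4, 68.5 and 55.8 TPM at 2 days (-1.85 ± 0.24). Fen1, the flap nuclease, fell by 1.53 on the log2 scale. All 3 of these changes to Pcna, Rpa1 and Lig1 had limma adjusted p of 1.73e-06 or smaller.

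Polymerase subunits were uneven. Prim1, the catalytic primase subunit, had 3.73, 2.94 and 3.95 TPM in 20-month large cells, against 29.1, 32.3 and 28.1 TPM at 2 days, a log2 change of -2.60 ± 0.17, and Pole, the leading-strand polymerase, fell by 2.15. Pold3 (chr7:100082111-100121565, minus strand), an accessory subunit of polymerase delta, had 19.6, 21.5 and 24.8 TPM in large cells, against 29.0, 35.8 and 27.7 TPM at 2 days. These values did not overlap, yet the change of -0.35 ± 0.14 missed the threshold (limma, adjusted p = 0.055). Rfc2, a clamp loader subunit, had 50.02, 52.7 and 50.6 TPM in large cells, against 47.6, 46.8 and 53.9 TPM at 2 days, and here the groups did overlap.

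In the group of cyclin E, E2f1 and Uhrf1, Uhrf1 helps keep DNA methylation on new strands. It had 8.32, 4.94 and 6.23 TPM in 20-month large cells, against 45.3, 39.1 and 39.7 TPM at 2 days (-2.37 ± 0.18). E2f1 (chr2:154559407-154569892, minus strand), the activating E2F, had 17.4, 16.0 and 15.6 TPM in large cells, against 24.0, 21.9 and 26.0 TPM at 2 days. Its change of -0.40 ± 0.14 was called (limma, adjusted p = 0.0298) but not after leaving out 2-day replicate 2 or 4 or large-cell replicate 3 or 4 (adjusted p 0.068 to 0.12). Ccne1 and Ccne2, the cyclins that drive entry into S phase, changed by -1.20 ± 0.16 and -1.40 ± 0.39.

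Other cell cycle genes were counted from function lists. Of 40 other replication factors, 24 fell and 0 rose (median -0.77), for example Chaf1a, a chromatin assembly subunit, at 6.61 TPM in 20-month large cells, against 28.3 TPM at 2 days (means), and Dbf4, the activator of the CDC7 kinase, at 12.8 against 45.6 TPM. All 12 G2 and mitosis markers fell (median -2.54), with the mitotic kinase gene Aurka at 5.51 against 53.2 TPM. Of 26 E2F, RB and G1 regulators, 5 rose and 12 fell (median -0.45): the inhibitor gene Cdkn2a had 75.7 TPM in large cells, against 11.9 TPM at 2 days, while Ccnd1, a G1 cyclin, had 59.3 against 201 TPM. In bulk RNA, fewer cells of a type and less RNA per cell cannot be told apart. The cells themselves differed: osteoclast markers summed to 18049 to 28058 TPM in 20-month large-cell libraries, against 750.4 to 776.0 TPM at 2 days, with 9 of 9 higher. Stromal markers summed to 3445 to 4377 TPM in large cells, against 709.5 to 928.5 TPM at 2 days, with 4 of 8 higher and 1 lower. Macrophage markers summed to 2365 to 2665 TPM, against 1739 to 1977 TPM, with 2 of 7 higher and 3 lower. Neutrophil markers summed to 2.99 to 17.9 TPM, against 149 to 212 TPM, with 2 of the 3 tested lower, and the 1 tested B cell marker was lower. The part of these in the result was not tested.

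**Figure D2:**
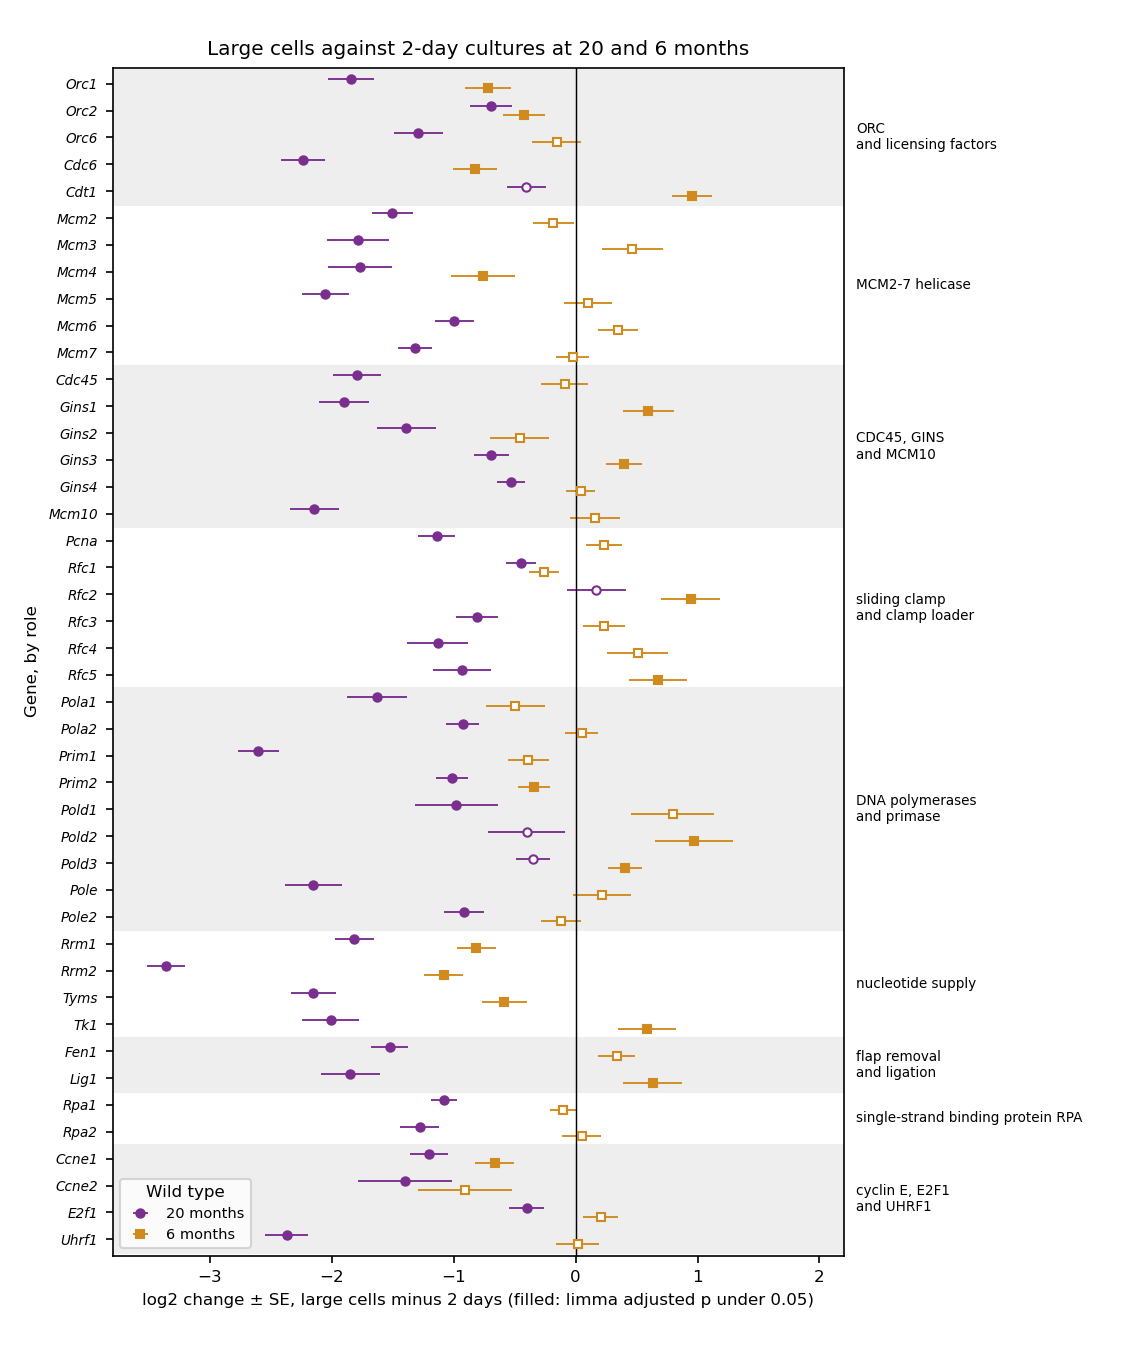
Log2 change (x axis) of each gene (y axis, by role), large cells minus 2 days, in wild-type mice of 20 months (circles) and 6 months (squares), with bars for the standard error and filled symbols for limma adjusted p under 0.05. The 20-month circles lie left of 0 for every gene but Rfc2, while the 6-month squares spread to both sides of 0.

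In 6-month wild-type mice, between the same harvests, replication genes were called no more often than tested genes at large in either direction. Of the 44 genes 9 rose and 9 fell, where 49.8% of all tested genes were called, 24.6% higher and 25.1% lower; the median was 0.05, against -0.02 over all tested genes. The rises were Cdt1, Gins1, Gins3, Rfc2, Rfc5, Pold2, Pold3, Tk1 and Lig1, and the falls Orc1, Orc2, Cdc6, Mcm4, Prim2, Rrm1, Rrm2, Tyms and Ccne1. As a description by role, 3 of 4 nucleotide genes and 3 of 5 licensing genes fell. Rises included 2 of 6 CDC45, GINS and MCM10 genes, 2 of 6 clamp genes and 2 of 9 polymerase and primase genes. With TPM as deposited the split was 3 higher and 18 lower. The number depends on how the spread is estimated: 4 genes were called with one variance per group and 2 when other groups were kept out of the fit. Leaving out large-cell replicate 2 left 10 called, 2-day replicate 1 or 2 left 11, and large-cell replicate 1 raised the number to 24.

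Rrm2 had 40.3, 25.8 and 46.2 TPM in 6-month large cells, against 95.8, 105 and 108 TPM at 2 days, the largest fall there (log2 change -1.08 ± 0.16, limma, adjusted p = 8.83e-06), with no overlap. Cdt1 had 21.5, 17.1 and 22.5 TPM in 6-month large cells, against 12.7, 12.3 and 14.3 TPM at 2 days (0.96 ± 0.16, limma, adjusted p = 5.78e-05), every large-cell library above every 2-day one. Pold2, a polymerase delta subunit, had 8.96, 23.1 and 11.1 TPM in large cells, against 6.06, 8.45 and 11.1 TPM at 2 days. It had the largest rise (0.97 ± 0.32, limma, adjusted p = 0.015), but replicate 2 held the highest value, and without it the change was 0.39 (adjusted p = 0.2). Lig1 had 38.2, 45.4 and 29.0 TPM in large cells, against 28.4, 25.5 and 40.6 TPM at 2 days, with overlapping groups, and its rise of 0.63 ± 0.24 was not called without replicate 2 (0.28, limma, adjusted p = 0.32) or without 2-day replicate 1 or 2.

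Of the other most abundant members, Mcm6 had 82.0, 47.8 and 73.0 TPM in 6-month large cells, against 66.5, 62.9 and 74.1 TPM at 2 days. Pcna had 135, 97.2 and 145 TPM, against 135, 132 and 148 TPM at 2 days, and Rpa1 51.1, 34.0 and 49.7 TPM, against 59.7, 61.1 and 66.9 TPM. None of these 3 was called, and replicate 2 was the lowest large-cell library each time. Gins4 had 26.6, 20.7 and 30.9 TPM in large cells, against 32.6, 31.7 and 34.2 TPM at 2 days; its uncalled change of 0.04 was -0.34 with TPM as deposited. E2f1 had 16.8, 17.5 and 18.6 TPM in large cells, against 18.4, 18.8 and 22.9 TPM (0.21, and -0.17 with TPM as deposited, not called in either). Pold3 had 22.9, 10.1 and 20.5 TPM, against 18.6, 14.02 and 16.8 TPM, and its rise of 0.40 ± 0.14 was 0.04 with TPM as deposited (limma, adjusted p = 0.0203 and 0.87). Scaling matters at this age: with TPM as deposited the median of all genes moved by -0.34, and changes here are relative to that shift. Osteoclast markers summed to 9428 to 14622 TPM in 6-month large cells, against 326 to 549 TPM at 2 days, with 9 of 9 higher, and stromal markers to 662 to 1158 TPM, against 1739 to 2102 TPM, with 1 of 8 lower. Macrophage markers summed to 1156 to 2614 TPM in large cells, against 1169 to 1290 TPM, with 3 of 7 higher and 1 lower, and the 1 tested B cell marker was higher. Their part in these values was not tested. Of 40 other replication factors 4 rose and 11 fell, of 12 G2 and mitosis markers 0 rose and 3 fell, among them Cdk1 at 92.9 TPM in large cells, against 164 TPM, and of 26 regulators 5 rose and 10 fell.

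The difference between the 2 ages was tested itself. The change from 2 days to large cells was more negative at 20 than at 6 months in 39 of 44 genes and more positive in 0, where 25% of all tested genes were called, 12.4% higher and 12.6% lower. The median difference was -1.33, against 0.0059 over all tested genes. Tk1 differed most (-2.60 ± 0.33, limma, adjusted p = 7.3e-06): it had 15.5, 8.97 and 17.2 TPM in 20-month large cells, against 67.4, 70.6 and 52.1 TPM at 2 days. At 6 months it had 35.8, 34.6 and 38.0 TPM in large cells, against 26.6, 31.0 and 36.8 TPM at 2 days. The groups were far apart at 20 months and overlapped at 6 months, where the called rise of 0.59 was lost without large-cell replicate 2 (0.41, limma, adjusted p = 0.21) and without 3 of the other libraries. Gins1 (-2.50 ± 0.29), Lig1 (-2.48 ± 0.34), Uhrf1 (-2.39 ± 0.25) and Rrm2 (-2.28 ± 0.22) differed by similar amounts. The 5 not called were Orc2, Rfc1, Rfc2, Ccne1 and Ccne2. With 6-month large-cell replicate 2 left out and only these groups in the fit, 39 genes were called, and leaving out any single library gave 34 to 40. Of the other lists 18 of 40 replication factors, 12 of 12 G2 and mitosis markers and 6 of 26 regulators were more negative at 20 months, with 0, 0 and 1 more positive. Marker lists moved with this difference: of 8 stromal markers 5 were more positive at 20 months, and of 9 osteoclast markers 5 were more negative and 1 more positive. Of 7 macrophage markers 3 were more negative, as were 2 of the 3 tested neutrophil markers and the 1 tested B cell marker. Their part was not tested.

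At 2 days, cultures from 20-month mice had more replication gene RNA than those from 6-month mice. Of the 44 genes 15 rose and 0 fell, where 17.3% of all tested genes were called, 8.54% higher and 8.77% lower; the median was 0.42, against 0.0088 over all tested genes. Called members lay in 8 of the 9 roles, all but RPA. Lig1 rose most, with 66.4, 68.5 and 55.8 TPM at 20 months, against 28.4, 25.5 and 40.6 TPM at 6 months and no overlap (0.99 ± 0.24, limma, adjusted p = 0.00629). Pcna had 198, 194 and 194 TPM at 20 months, against 135, 132 and 148 TPM at 6 months (0.47 ± 0.15, adjusted p = 0.0295 by limma), and Pold3 and Cdt1 rose by 0.83 ± 0.14 and 0.75 ± 0.16. Rrm2 (0.25), Gins4 (0.08), Mcm6 (0.40), Rpa1 (0.24) and E2f1 (0.23) were not called.

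The number moved with the fit: 31 genes were called with one variance per group and 30 when other groups were kept out of the fit. Shares of all tested genes called in these fits are not given here, so the counts cannot show whether genes at large moved too. Leaving out 20-month replicate 2 or 3, or 6-month replicate 1 or 2, left 6 genes each time, and leaving out 20-month replicate 4 left 7. G2 and mitosis markers rose in 8 of 12 (Top2a, 126 TPM at 20 months, against 70.5 TPM at 6 months), other replication factors in 8 of 40 with 1 lower, and regulators in 4 of 26 with 2 lower. E2f2, another activating E2F, had 8.77 TPM at 20 months, against 2.75 TPM at 6 months. Osteoclast markers summed to 750.4 to 776.0 TPM at 20 months, against 326 to 549 TPM at 6 months, with 5 of 9 higher, and stromal markers to 709.5 to 928.5 TPM, against 1739 to 2102 TPM, with 5 of 8 lower. Macrophage markers summed to 1739 to 1977 TPM at 20 months, against 1169 to 1290 TPM at 6 months, with 3 of 7 higher, and neutrophil markers to 149 to 212 TPM, against 84.5 to 173 TPM, with 1 of the 3 tested higher, as was the 1 tested B cell marker. Their part was not tested.

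**Figure D3:**
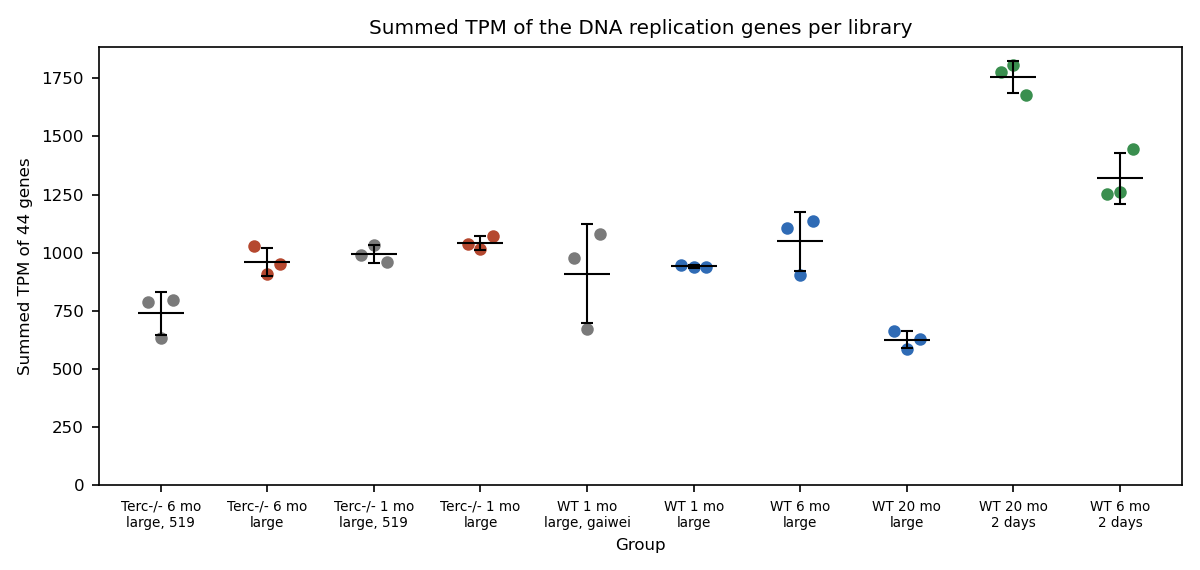
Summed TPM of the 44 genes as deposited, without scaling, in each library (points, by group), with the group mean (line) and SD (bar, n = 3). The 20-month 2-day libraries sit highest, at 1680 to 1809 TPM, the 6-month 2-day libraries at 1252 to 1446 TPM, and the 20-month large-cell libraries lowest of the unmarked groups, at 586 to 662 TPM.

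Summed over the 44 genes, TPM as deposited ordered the groups as follows, as a description. The sums were not divided by the scaling factors used in the tests. Those factors ran from 0.664 (gaiwei-marked replicate 2) to 1.30 (20-month 2-day replicate 3). The order is that of TPM before scaling and need not hold after it. The 20-month 2-day libraries held 1756 ± 67.2 TPM and the 6-month 2-day libraries 1320 ± 110 TPM (SD, n = 3 each). Below them came 6-month wild-type large cells (1048 ± 127), unmarked 1-month Terc-/- (1042 ± 29.4), 519-marked 1-month Terc-/- (993 ± 37.6), unmarked 6-month Terc-/- (961 ± 61.3), unmarked 1-month wild type (941 ± 6.6) and gaiwei-marked 1-month wild type (910 ± 213 TPM). Neighbours among these 6 did not lie apart beyond their spread. The 519-marked 6-month Terc-/- libraries (740 ± 92.6) and the 20-month large cells (626 ± 38.4 TPM) were lowest, at 633 to 798 and 586 to 662 TPM, and overlapped; the gaiwei-marked range of 671 to 1079 TPM also reached the 519-marked 6-month one.

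Across ages, large-cell wild-type cultures were compared at 1, 6 and 20 months; these comparisons share groups, so their values are set side by side. Rrm2 had 42.3, 44.6 and 40.8 TPM at 1 month, 40.3, 25.8 and 46.2 TPM at 6 months, and 10.6, 8.38 and 11.3 TPM at 20 months. Every 20-month library lay below every younger one. Its log2 change was -0.06 ± 0.16 at 6 against 1 month, -2.09 ± 0.16 at 20 against 1 month and -2.03 ± 0.16 at 20 against 6 months (limma, adjusted p = 0.816, 1.17e-09 and 5.95e-09). Both changes at 20 months were the largest falls among the 44 genes. Pcna had 158, 136 and 129 TPM at 1 month, 135, 97.2 and 145 TPM at 6 months, and 84.7, 77.5 and 79.7 TPM at 20 months. Mcm6 had 64.2, 63.5 and 61.2 TPM at 1 month, 82.0, 47.8 and 73.0 TPM at 6 months, and 43.1, 39.7 and 41.5 TPM at 20 months. For both genes the 20-month libraries were the lowest and the younger ages overlapped. Rpa1 had 41.8, 54.98 and 60.2 TPM at 1 month, 51.1, 34.0 and 49.7 TPM at 6 months, and 34.2, 31.0 and 30.8 TPM at 20 months, with replicate 2 of 6 months inside the 20-month range. Lig1 had 17.8, 23.5 and 21.2 TPM at 1 month, 38.2, 45.4 and 29.0 TPM at 6 months, and 16.9, 12.7 and 16.6 TPM at 20 months, highest at 6 months, with a fall at 20 against 6 months (-1.50 ± 0.24) and no call at 20 against 1 month (-0.53).

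At 20 against 6 months 37 of 44 genes fell and 0 rose, where 27.6% of all tested genes were called, 12.7% higher and 14.9% lower (median -0.90, against 0.02 over all). At 20 against 1 month 26 fell and 0 rose, where 22.2% were called, 9.2% higher and 13% lower (median -0.68, against -0.01 over all). Among roles, 4 of 4 nucleotide genes fell in both, as did both RPA subunits, and 5 of 6 MCM subunits. Pold3 had 20.4, 20.4 and 20.6 TPM at 1 month, 22.9, 10.1 and 20.5 TPM at 6 months, and 19.6, 21.5 and 24.8 TPM at 20 months, and was not called. Gins4 had 25.6, 26.2 and 23.7 TPM at 1 month, 26.6, 20.7 and 30.9 TPM at 6 months, and 22.4, 22.4 and 21.2 TPM at 20 months; only its change at 20 against 6 months was called (-0.49 ± 0.12), and not with TPM as deposited (-0.22, limma, adjusted p = 0.00369 and 0.14). Cdt1 had 22.8, 16.3 and 17.4 TPM at 1 month, 21.5, 17.1 and 22.5 TPM at 6 months, and 16.95, 14.9 and 15.5 TPM at 20 months. E2f1 had 16.4, 18.3 and 18.7 TPM at 1 month, 16.8, 17.5 and 18.6 TPM at 6 months, and 17.4, 16.0 and 15.6 TPM at 20 months, with overlapping ranges throughout. Its change at 20 against 6 months (-0.38, adjusted p = 0.0488 by limma) was -0.18 without 6-month replicate 2 (adjusted p = 0.37).

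The 20 against 6 months count was 12 with one variance per group, 9 with only the groups compared and 28 when 6-month replicate 2 was left out as well; leaving out single libraries gave 34 to 37. At 20 against 1 month leaving out single libraries gave 19 to 28. All 12 G2 and mitosis markers fell in both comparisons, of 40 other replication factors 18 fell at 20 against 6 months and 14 at 20 against 1 month, and 0 rose. Of 26 E2F, RB and G1 regulators 2 rose and 5 fell at 20 against 6 months, and 1 rose and 6 fell at 20 against 1 month. The CDK inhibitor gene Cdkn1b had 20.9, 16.8 and 32.9 TPM at 1, 6 and 20 months (means), called as a rise at 20 months against both, and Ccnd1 had 137, 107 and 59.3 TPM, called as a fall. Cdkn1c, another CDK inhibitor gene, had 4.18, 4.85 and 1.71 TPM, called as a fall against both (-0.99 against 1 month and -1.30 against 6 months). Cdkn2a, whose locus encodes a CDK inhibitor, had 159, 82.0 and 75.7 TPM, called as a fall at 20 against 1 month (-1.17) and at 6 against 1 month (-0.81). Osteoclast markers summed to 10494 to 12903, 9428 to 14622 and 18049 to 28058 TPM at the 3 ages, and stromal markers to 582 to 2666, 662 to 1158 and 3445 to 4377 TPM. At 20 against 1 month 5 of 9 osteoclast markers were higher, 3 of 8 stromal markers were higher and 1 lower, and 1 of the 3 tested neutrophil markers was lower. At 20 against 6 months 3 of 9 osteoclast and 4 of 8 stromal markers were higher, and 1 macrophage, 1 neutrophil and the 1 tested B cell marker were lower. At 6 against 1 month 1 macrophage marker and the 1 tested B cell marker were higher, and 1 stromal marker was higher and 1 lower. Osteoclast and stromal sums were highest at 20 months, where the replication genes were lowest; their part was not tested.

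At 6 against 1 month only Mcm7 (0.55 ± 0.14), Rfc2 (0.76 ± 0.24) and Lig1 (0.96 ± 0.24) rose and 0 fell, where 9.58% of all tested genes were called, 3.87% higher and 5.71% lower (median 0.26, against -0.02 over all). Lig1 had 38.2, 45.4 and 29.0 TPM at 6 months, against 17.8, 23.5 and 21.2 TPM at 1 month. Mcm7 had 49.95, 33.2 and 47.6 TPM at 6 months, against 27.8, 32.9 and 37.1 TPM at 1 month, and Rfc2 61.9, 94.1 and 49.6 TPM, against 50.7, 35.98 and 44.3 TPM. The groups overlapped for Mcm7 and Rfc2 and not for Lig1, and replicate 2 held the highest Lig1 and Rfc2. Without that library, Lig1 and Rfc2 did not pass (limma, adjusted p = 0.11 and 0.34) and 1 gene was called; without 6-month replicate 1 it was 17, without 6-month replicate 4 5, without 1-month replicate 1 14, and without 1-month replicate 3 or 4 1. With one variance per group or only the groups compared, 0 of the 44 were called.

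In 1-month mice, unmarked Terc-/- large cells were compared with unmarked wild-type ones, the question being what loss of Terc changes in young osteoclasts. Cdt1, Mcm5, Pcna, Pold1 and E2f1 rose and Tyms fell, 6 of 44, where 30.9% of all tested genes were called, 15.4% higher and 15.6% lower; the median was 0.07, against 0.0019 over all tested genes. With TPM as deposited 4 rose and 2 fell. Cdt1 had 40.3, 42.9 and 42.8 TPM in Terc-/- cells, against 22.8, 16.3 and 17.4 TPM in wild type, far apart and the largest rise (1.15 ± 0.16, limma, adjusted p = 1.3e-05). Tyms, called against the others, had 16.7, 21.2 and 18.9 TPM in Terc-/- cells, against 34.4, 29.6 and 30.1 TPM in wild type (-0.67 ± 0.18, limma, adjusted p = 0.00734). Pcna had 201, 202 and 179 TPM in Terc-/- cells, against 158, 136 and 129 TPM in wild type, and E2f1 21.6, 24.0 and 23.1 TPM, against 16.4, 18.3 and 18.7 TPM. Neither pair of groups overlapped, with changes of 0.49 ± 0.15 and 0.38 ± 0.14.

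Mcm6 had 78.1, 78.8 and 76.6 TPM in 1-month Terc-/- cells, against 64.2, 63.5 and 61.2 TPM in wild type, apart in every library but not called (0.33, limma, adjusted p = 0.123). Rrm2 had 34.2, 35.5 and 42.2 TPM, against 42.3, 44.6 and 40.8 TPM, and Lig1 18.5, 20.6 and 20.7 TPM, against 17.8, 23.5 and 21.2 TPM. Gins4 had 24.7, 25.2 and 23.4 TPM in Terc-/- cells, against 25.6, 26.2 and 23.7 TPM, Pold3 23.9, 18.5 and 25.0 TPM, against 20.4, 20.4 and 20.6 TPM, and Rpa1 46.5, 43.1 and 50.5 TPM, against 41.8, 54.98 and 60.2 TPM. All 5 of these overlapped and none was called. Leaving out Terc-/- replicate 3 or wild-type replicate 3 left 2 genes called, and leaving out replicate 4 of either group left 3. Without wild-type replicate 1, Tyms was at -0.48 (limma, adjusted p = 0.053), and Pcna, E2f1, Mcm5 and Pold1 each lost the call when any 1 of 4 or 5 of the 6 libraries was left out. The wild-type libraries here are those with Xist and no Eif2s3y, so genotype and that pattern cannot be told apart. Stromal markers summed to 113 to 213 TPM in Terc-/- cells, against 582 to 2666 TPM in wild type, with 5 of 8 lower and 1 higher, and macrophage markers to 3146 to 3663 TPM, against 2207 to 2233 TPM, with 3 of 7 higher. Of 9 osteoclast markers 2 were higher, as was the 1 tested B cell marker; their part was not tested. Other replication factors rose in 1 and fell in 5 of 40. The cyclin D2 gene Ccnd2 had 18.7 TPM in Terc-/- cells, against 81.6 TPM in wild type.

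At 6 months, Terc-/- against wild type, 10 of 44 fell and 0 rose, where 28.8% of all tested genes were called, 15.7% higher and 13.1% lower (median -0.22, against 0.02 over all). They were Orc6, Mcm7, Rfc2, Rfc3, Rfc4, Rfc5, Prim1, Pole, Lig1 and Ccne1. Lig1 fell most, with 21.4, 18.1 and 17.1 TPM in Terc-/- cells, against 38.2, 45.4 and 29.0 TPM in wild type and no overlap (-1.06 ± 0.24, limma, adjusted p = 0.00206). No member was called with one variance per group or with only the groups compared, 1 when wild-type replicate 2 was left out as well, and 6 without the filter on low values; with TPM as deposited 2 rose and 7 fell. Leaving out single libraries gave 2 (without Terc-/- replicate 2) to 18 (without wild-type replicate 1), with 3 without Terc-/- replicate 1 and 6 without wild-type replicate 4.

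Cdt1 had 31.1, 29.1 and 30.1 TPM in 6-month Terc-/- cells, against 21.5, 17.1 and 22.5 TPM in wild type; every Terc-/- library was higher, but the change of 0.43 ± 0.16 missed the threshold (limma, adjusted p = 0.0539). Pcna had 176, 137 and 156 TPM, against 135, 97.2 and 145 TPM, and E2f1 22.3, 20.97 and 25.1 TPM, against 16.8, 17.5 and 18.6 TPM. Rrm2 had 39.4, 34.5 and 40.7 TPM in Terc-/- cells, against 40.3, 25.8 and 46.2 TPM, and Mcm6 69.2, 58.2 and 55.8 TPM, against 82.0, 47.8 and 73.0 TPM. Of these 4 only E2f1 did not overlap, and none was called. Gins4 had 23.0, 23.8 and 24.8 TPM in Terc-/- cells, against 26.6, 20.7 and 30.9 TPM, Pold3 21.5, 18.8 and 15.6 TPM, against 22.9, 10.1 and 20.5 TPM, and Rpa1 46.3, 43.1 and 43.5 TPM, against 51.1, 34.0 and 49.7 TPM, all 3 overlapping and not called. Whether the genotype difference changed from 1 to 6 months was tested too: 0 of 44 genes were called, where 3.58% of all tested genes were, 2.79% higher and 0.785% lower (median -0.31, against 0.03 over all), with 1, 2 or 7 called without 6-month wild-type replicate 4, 1-month wild-type replicate 1 or 6-month wild-type replicate 1. At an unadjusted p under 0.05, 13 of 44 would pass, as would 17.6% of all tested genes. Of 8 stromal markers 4 were called more positive at 6 months and 1 more negative in that test, and the 1 tested B cell marker was more negative; their part was not tested. Stromal markers summed to 274 to 929 TPM in 6-month Terc-/- cells, against 662 to 1158 TPM in wild type, with 5 of 8 lower and 1 higher, and macrophage markers to 3176 to 3673 TPM, against 1156 to 2614 TPM, with 4 of 7 higher. Neutrophil markers summed to 94.0 to 202 TPM in 6-month Terc-/- cells, against 17.6 to 65.9 TPM in wild type, with 2 of the 3 tested higher; the part of these lists was not tested.

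**Figure D4:**
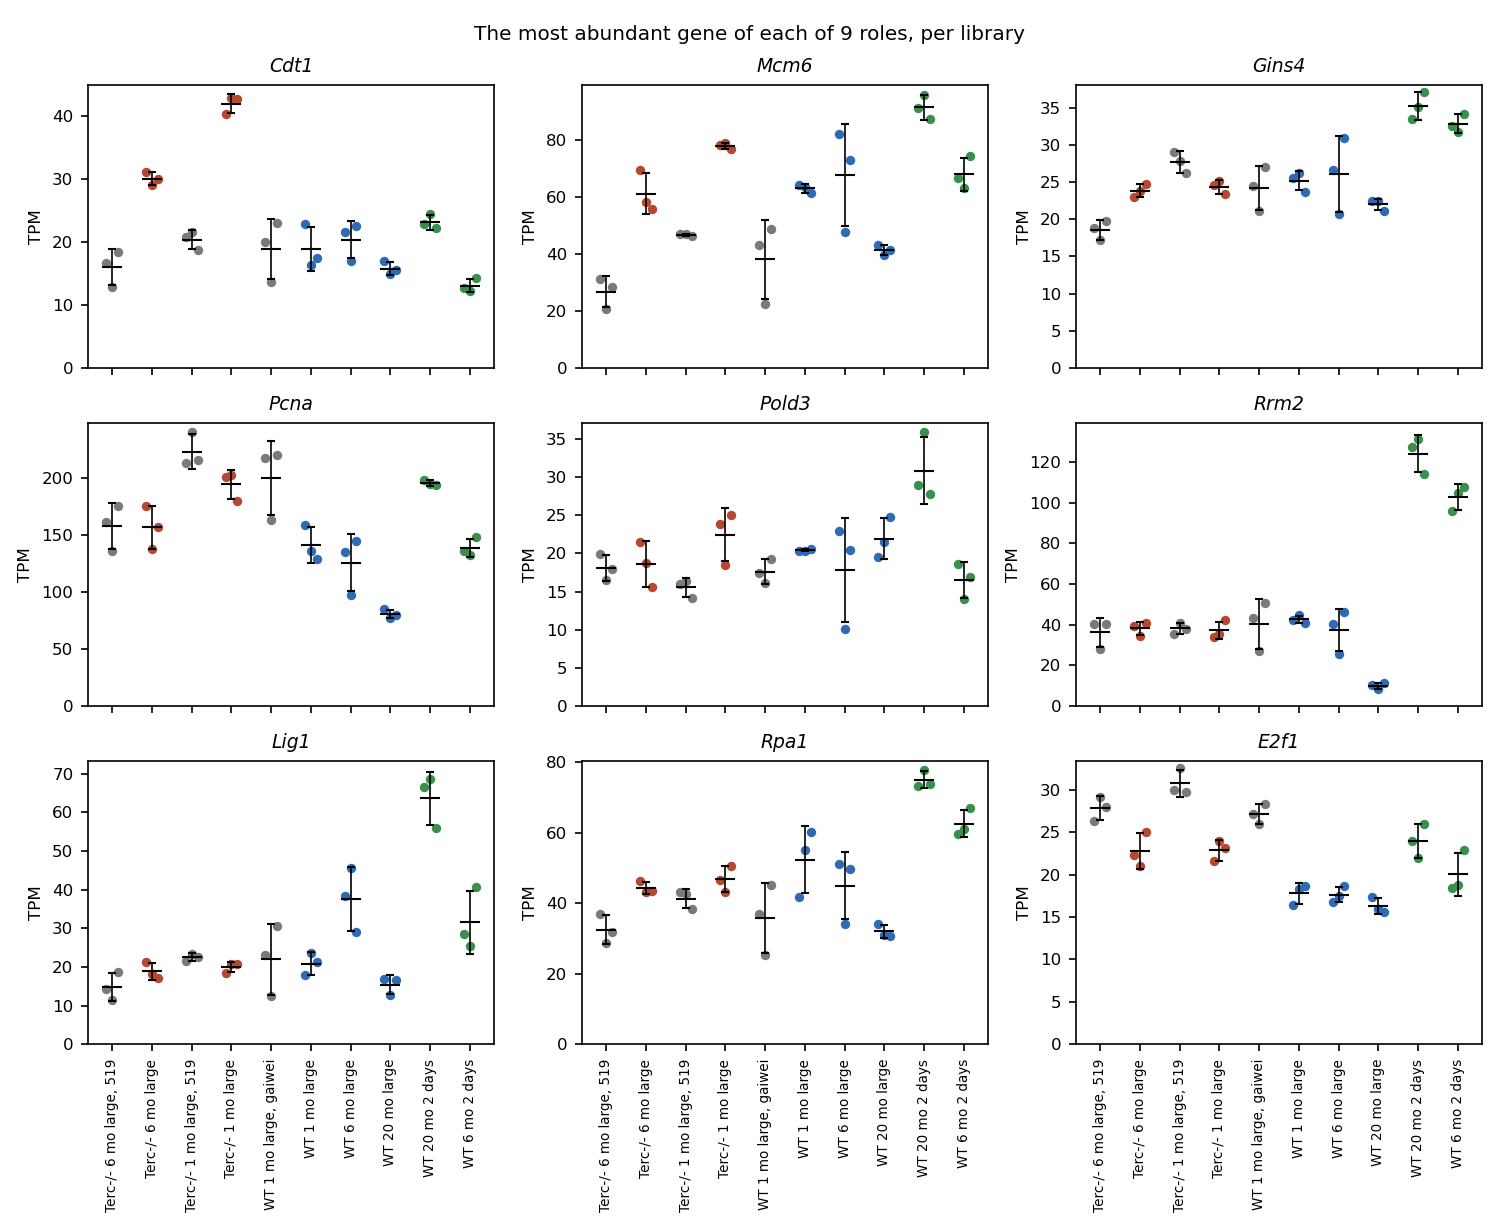
TPM of the most abundant gene of each of the 9 roles (panels) in every library (points, by group), with group mean (line) and SD (bar, n = 3). Rrm2 is lowest in 20-month large cells and highest at 2 days, Cdt1 is highest in unmarked 1-month Terc-/- cells at 40.3 to 42.9 TPM, and E2f1 has its 3 highest group means in the marked groups.

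Among Terc-/- cultures labelled as large cells, age was compared within the unmarked and within the 519-marked libraries. Without the mark 0 of 44 were called at 6 against 1 month, where 3.98% of all tested genes were, 2.93% higher and 1.05% lower (median -0.05, against 0.0027 over all); 5 of 44 had an unadjusted p under 0.05, as had 13.8% of all tested genes, and 1 was called when 6-month wild-type replicate 2 was left out of the shared fit. Of 8 stromal markers 5 were higher at 6 months, and 1 osteoclast and 1 macrophage marker were lower; their part was not tested. In the 519-marked set 23 of 44 fell and 0 rose, where 23.9% were called, 12% higher and 11.8% lower (median -0.52, against -0.01 over all). Mcm3, a helicase subunit, fell most, with 27.5, 20.1 and 23.6 TPM at 6 months, against 40.8, 53.7 and 47.1 TPM at 1 month and no overlap (-1.15 ± 0.25, limma, adjusted p = 0.00188). Mcm6 had 31.1, 20.7 and 28.5 TPM at 6 months, against 46.8, 46.9 and 46.2 TPM at 1 month (-0.99 ± 0.16), and Gins4 18.8, 17.2 and 19.7 TPM, against 29.1, 27.9 and 26.2 TPM (-0.74 ± 0.12), again apart. Pcna had 161, 136 and 175 TPM at 6 months, against 213, 240 and 215 TPM, Rpa1 36.9, 28.7 and 31.8 TPM, against 43.1, 42.5 and 38.3 TPM, and Lig1 14.2, 11.5 and 18.7 TPM, against 21.5, 23.4 and 22.6 TPM. All 3 were called and apart in every library.

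Cdt1 had 16.7, 12.8 and 18.4 TPM in 519-marked 6-month cells, against 20.7, 21.6 and 18.7 TPM at 1 month (-0.52 ± 0.16, called). Rrm2 had 40.2, 28.1 and 40.3 TPM, against 35.6, 40.8 and 38.0 TPM, Pold3 19.9, 16.5 and 17.9 TPM, against 16.0, 16.4 and 14.2 TPM, and E2f1 26.3, 29.2 and 28.0 TPM, against 29.98, 32.6 and 29.8 TPM, none of them called. With TPM as deposited 10 members were called, the median of all genes moving by 0.15, and leaving out 6-month replicate 2 or 1-month replicate 2 left 11 or 12. Osteoclast markers summed to 1230 to 2147 TPM in these 6-month libraries, against 650 to 683 TPM at 1 month, with 3 of 9 higher, and stromal markers to 280 to 456 TPM, against 81.8 to 100.3 TPM, with 5 of 8 higher. Macrophage markers summed to 4677 to 5230 TPM at 6 months, against 4556 to 4892 TPM at 1 month, with 3 of 7 lower, and the 1 tested B cell marker was lower; their part was not tested. Of G2 and mitosis markers 6 of 12 fell.

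The marked groups were compared with the unmarked ones of their age and genotype, in 3 comparisons that share no library. Here scaling decides the direction of many members: with TPM as deposited the median of all genes moved by -0.40 (519 in 1-month Terc-/-), -0.25 (519 in 6-month Terc-/-) and -0.49 (gaiwei in 1-month wild type), and changes are given relative to that shift. In 1-month Terc-/- cells 18 rose and 3 fell with the 519 mark, where 33.6% of all tested genes were called, 18.5% higher and 15.1% lower (median 0.35, against 0.0084 over all). With TPM as deposited 2 rose and 5 fell. In 6-month Terc-/- cells 1 rose and 4 fell, where 28.2% were called, 14.4% higher and 13.8% lower (median -0.14, against -0.0090 over all), and with TPM as deposited 1 rose and 16 fell. In 1-month wild type 17 rose and 2 fell with the gaiwei mark, where 46.5% were called, 24.2% higher and 22.4% lower (median 0.33, against 0.00 over all), and with TPM as deposited 4 rose and 8 fell.

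E2f1 rose in all 3. It had 29.98, 32.6 and 29.8 TPM in 519-marked 1-month Terc-/- cells, against 21.6, 24.0 and 23.1 TPM unmarked (0.87 ± 0.14, limma, adjusted p = 3.46e-05). It had 26.3, 29.2 and 28.0 TPM in 519-marked 6-month Terc-/- cells, against 22.3, 20.97 and 25.1 TPM unmarked (0.56 ± 0.14, adjusted p = 0.00431 by limma). In gaiwei-marked wild type it had 27.1, 26.0 and 28.3 TPM, against 16.4, 18.3 and 18.7 TPM unmarked, the largest rise of that comparison (1.13 ± 0.14, limma, adjusted p = 5.86e-07). No marked library overlapped an unmarked one, and the TPM as deposited were also higher. Mcm3 rose most in the 1-month Terc-/- comparison, with 40.8, 53.7 and 47.1 TPM marked, against 33.8, 28.9 and 30.6 TPM unmarked (1.04 ± 0.25).

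Orc2, an origin recognition subunit, was called lower in all 3. It had 9.66, 9.04 and 8.47 TPM in 519-marked 1-month Terc-/- cells, against 22.3, 16.97 and 28.9 TPM unmarked (-0.77 ± 0.17). At 6 months it had 13.1, 12.7 and 9.44 TPM marked, against 24.5, 20.8 and 19.8 TPM unmarked (-0.57 ± 0.17), and in wild type 7.90, 7.74 and 13.1 TPM with gaiwei, against 14.7, 24.6 and 26.5 TPM without (-0.59 ± 0.17). The groups were apart each time; the 6-month call was lost without marked replicate 3 or unmarked replicate 1 (limma, adjusted p = 0.11 and 0.075). Gins3, a GINS subunit, had 2.74, 2.35 and 2.92 TPM in 519-marked 1-month Terc-/- cells, against 5.72, 5.56 and 6.25 TPM unmarked (-0.54 ± 0.15), and 2.59, 1.84 and 2.98 TPM with gaiwei, against 5.59, 4.68 and 5.75 TPM without (-0.46 ± 0.15).

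Cdt1 was lower in both 519-marked Terc-/- groups. In 519-marked Terc-/- cells it had 20.7, 21.6 and 18.7 TPM at 1 month, against 40.3, 42.9 and 42.8 TPM unmarked (-0.56 ± 0.16), and 16.7, 12.8 and 18.4 TPM at 6 months, against 31.1, 29.1 and 30.1 TPM unmarked (-0.61 ± 0.16). In gaiwei-marked wild type it had 20.1, 13.7 and 23.0 TPM, against 22.8, 16.3 and 17.4 TPM unmarked, overlapping groups whose called rise of 0.52 was -0.012 with TPM as deposited. Mcm6 fell in 6-month 519-marked cells, with 31.1, 20.7 and 28.5 TPM, against 69.2, 58.2 and 55.8 TPM unmarked, the largest fall there (-0.90 ± 0.16, limma, adjusted p = 0.000135), and so did Mcm7, with 19.7, 17.2 and 21.1 TPM, against 32.9, 39.1 and 32.2 TPM (-0.54 ± 0.14). Mcm6 was not called at 1 month, with 46.8, 46.9 and 46.2 TPM marked, against 78.1, 78.8 and 76.6 TPM unmarked in Terc-/- cells, and 43.0, 22.5 and 48.7 TPM with gaiwei, against 64.2, 63.5 and 61.2 TPM without in wild type. As deposited, every marked library lay below every unmarked one in both. The test came after division by scaling factors, in Terc-/- cells 0.723 to 0.784 marked and 0.993 to 1.13 unmarked.

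Pcna had 213, 240 and 215 TPM in 519-marked 1-month Terc-/- cells, against 201, 202 and 179 TPM unmarked, and 217, 163 and 220 TPM in gaiwei-marked wild type, against 158, 136 and 129 TPM unmarked. Both were called (0.67 ± 0.15 and 1.05 ± 0.15), while at 6 months 161, 136 and 175 TPM marked, against 176, 137 and 156 TPM unmarked, was not (0.29). Rrm2 had 35.6, 40.8 and 38.0 TPM in 519-marked 1-month cells, against 34.2, 35.5 and 42.2 TPM unmarked, and 43.55, 27.1 and 50.9 TPM with gaiwei, against 42.3, 44.6 and 40.8 TPM without. Its groups overlapped in both, and the called rises of 0.50 and 0.44 were 0.04 and -0.12 with TPM as deposited. Lig1, with 21.5, 23.4 and 22.6 TPM marked, against 18.5, 20.6 and 20.7 TPM unmarked at 1 month, passed at adjusted p = 0.0499 (limma) and lost the call under every library left out. In wild type it had 23.0, 12.4 and 30.7 TPM with gaiwei, against 17.8, 23.5 and 21.2 TPM without (0.53, not called). At 6 months Lig1 had 14.2, 11.5 and 18.7 TPM marked, against 21.4, 18.1 and 17.1 TPM unmarked, and Rrm2 40.2, 28.1 and 40.3 TPM, against 39.4, 34.5 and 40.7 TPM; both overlapped and neither was called.

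Gins4 had 29.1, 27.9 and 26.2 TPM in 519-marked 1-month Terc-/- cells, against 24.7, 25.2 and 23.4 TPM unmarked, and 24.5, 21.2 and 27.0 TPM in gaiwei-marked wild type, against 25.6, 26.2 and 23.7 TPM unmarked. Its called rises of 0.64 ± 0.12 and 0.49 ± 0.12 were 0.18 and -0.058 with TPM as deposited, and at 6 months it had 18.8, 17.2 and 19.7 TPM marked, against 23.0, 23.8 and 24.8 TPM unmarked (-0.07, not called). Rpa1 had 43.1, 42.5 and 38.3 TPM marked, against 46.5, 43.1 and 50.5 TPM unmarked at 1 month in Terc-/- cells, lower as deposited but called as a rise of 0.29 after scaling (-0.17 as deposited). It had 36.9, 28.7 and 31.8 TPM marked, against 46.3, 43.1 and 43.5 TPM unmarked at 6 months, and 36.8, 25.4 and 45.2 TPM with gaiwei, against 41.8, 54.98 and 60.2 TPM without, neither called. Pold3 was called in none of the 3, with 16.0, 16.4 and 14.2 TPM marked, against 23.9, 18.5 and 25.0 TPM unmarked at 1 month, 19.9, 16.5 and 17.9 TPM, against 21.5, 18.8 and 15.6 TPM at 6 months, and 17.5, 16.1 and 19.3 TPM, against 20.4, 20.4 and 20.6 TPM in wild type.

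The marked libraries also differed in cell markers. Osteoclast markers summed to 650 to 683 TPM in 519-marked 1-month Terc-/- cells, against 9048 to 11383 TPM unmarked, with 9 of 9 lower. They summed to 1230 to 2147 TPM, against 4593 to 11258 TPM at 6 months (8 of 9 lower), and to 873 to 1288 TPM, against 10494 to 12903 TPM in wild type (8 of 9 lower). The wild-type 2-day cultures summed to 326 to 549 TPM at 6 months and 750.4 to 776.0 TPM at 20 months. The 519-marked 1-month sums lay between the 6-month and 20-month ranges of the 2-day cultures. Sums of the other marked groups lay above both ranges, though below those of their unmarked counterparts. For the marked groups the name large cells is only that of the labels. Neutrophil markers summed to 1199 to 3295 TPM over the marked libraries, against 18.2 to 202 TPM in the unmarked ones of those groups. In each comparison 2 of the 3 tested were higher. Only 2 of the 7 had a group mean of at least 1 TPM in each marked group. Elane was at 0 in every group, and Mpo and S100a9 were at 0 in the 519-marked 1-month libraries. Macrophage markers summed to 4556 to 4892 TPM in 519-marked 1-month Terc-/- cells, against 3146 to 3663 TPM unmarked, and to 4118 to 4469 TPM in gaiwei-marked wild-type cells, against 2207 to 2233 TPM unmarked, with 4 of 7 higher in both. At 6 months they summed to 4677 to 5230 TPM with 519, against 3176 to 3673 TPM without, with 3 of 7 higher and 2 lower, and the 1 tested B cell marker was lower. Stromal markers summed to 183 to 304 TPM with gaiwei, against 582 to 2666 TPM without (5 of 8 lower and 1 higher). With 519 they summed to 81.8 to 100.3 TPM at 1 month, against 113 to 213 TPM without (3 of 8 lower), and to 280 to 456 TPM at 6 months, against 274 to 929 TPM (1 of 8 lower). The part of these in the members' values was not tested. In the 1-month Terc-/- comparison leaving out marked replicate 2 or unmarked replicate 1 left 13 members called.

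Set directly against each other, 519-marked Terc-/- and gaiwei-marked wild-type cells of 1 month had 0 of 44 members called, where 3.45% of all tested genes were, 1.58% higher and 1.87% lower (median 0.08, against -0.02 over all); 1 of 44 had an unadjusted p under 0.05, as had 12.8% of all tested genes. There 1 osteoclast and 1 stromal marker were lower; their part was not tested. Whether the 519 difference changed with age, which is also whether the age difference changed with 519, was added as a test after the data were seen: Mcm7 (-0.84 ± 0.19), Gins4 (-0.71 ± 0.16) and Fen1 (-0.78 ± 0.22) were more negative at 6 than at 1 month, 3 of 44, where 4.67% of all tested genes were called, 1.96% higher and 2.71% lower (median -0.46, against -0.03 over all). Fen1 had 18.6, 14.5 and 20.1 TPM in 519-marked 6-month cells, against 28.8, 25.0 and 27.6 TPM unmarked, and 28.3, 30.2 and 26.6 TPM in 519-marked 1-month cells, against 28.2, 27.4 and 29.8 TPM unmarked. None was called with TPM as deposited, and leaving out unmarked 1-month replicate 4 left 1. The count was 12 with one variance per group, 12 with only the groups compared and 8 when 6-month wild-type large-cell replicate 2 was left out. Of 9 osteoclast markers 3 were more positive in this test, and 2 macrophage markers and the 1 tested B cell marker more negative; their part was not tested.

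**Figure D5:**
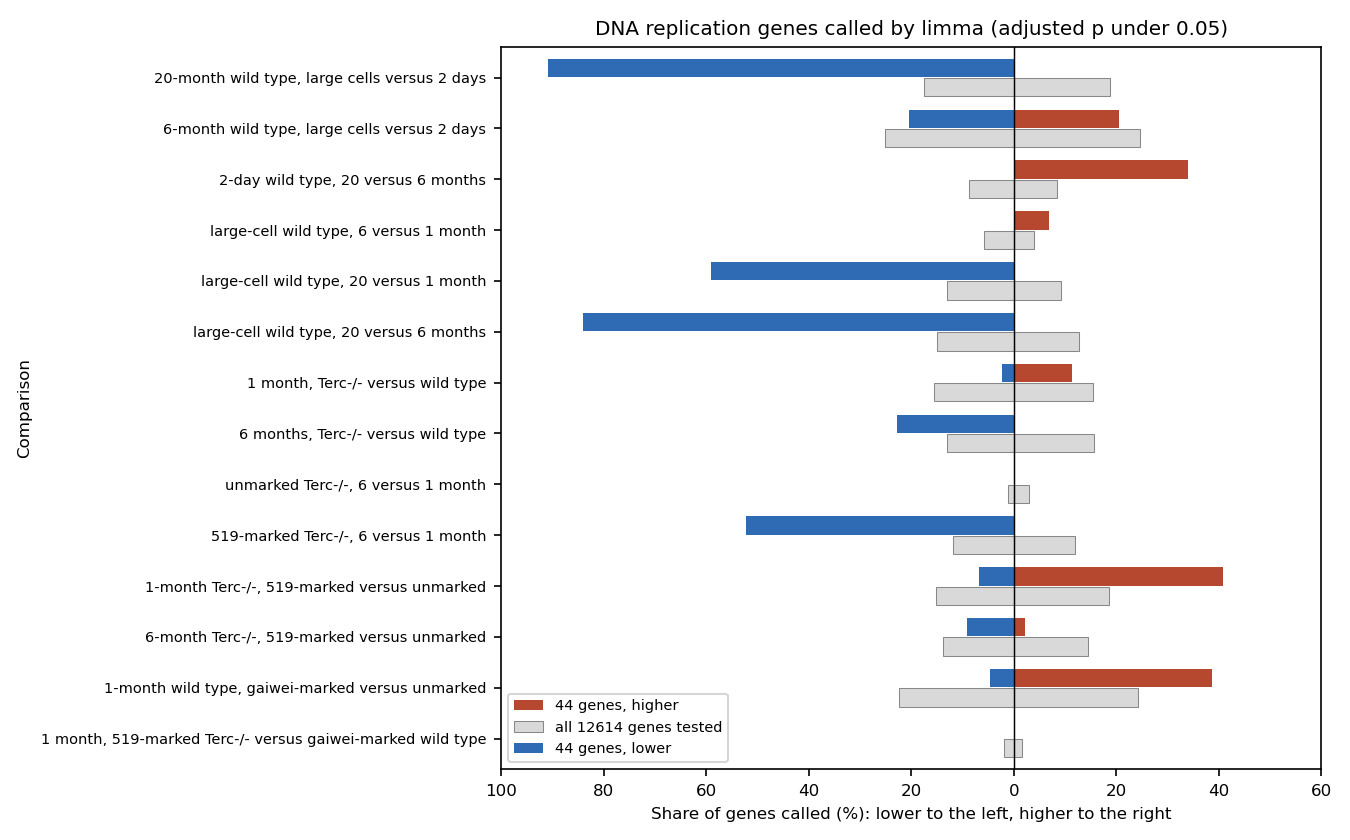
Share of the 44 genes called higher (right, red) and lower (left, blue) in each of 14 comparisons, above the share of all 12614 tested genes (grey). The 44 genes stand far beyond the grey bars to the left at 20 months (large cells against 2 days, and 20 against 6 or 1 month). They do so too in 519-marked Terc-/- cells at 6 against 1 month, with 23 of 44 lower, against 11.8% of all tested genes. They stand near or under the grey bars in the comparison of Terc-/- with wild type at 1 month.

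How alike the members were is given as a description over the 30 libraries, which share groups and scaling. The correlation of a gene with the mean of the other 43, on the log2 scale after scaling, had a median of 0.78. It was at least 0.8 for 20 genes, led by Uhrf1 (0.95), and under 0.5 for 9. Orc2 (0.14), Rfc2 (0.16), Pold3 (0.21) and Cdt1 (0.28) were least like the rest. Some values may include reads of other genes. Exons of 16 members overlap exons of another annotated gene, 14 of them on the opposite strand, and no source states whether counting used strand; the longest are Gins2 with Gse1 (2758 bases), Fen1 with Gm10143 (1909), Orc2 with Nif3l1 (1150) and Rfc2 with Lat2 (952). Reads of such pairs cannot be told apart without strand. Pcna and Tyms have processed copies in the annotation (Pcna-ps1, Pcna-ps2 and Tyms-ps), and the sources used here do not say how reads shared with them were counted.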

How the data were processed

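Expression was deposited by the authors as TPM per Ensembl gene in 5 tables. Per the labels' protocols, mRNA was captured with oligo-dT and sequenced on an Illumina NovaSeq. The submitters' processing notes name HTSeq and mm10, without versions; the aligner and the strand setting are not given in the sources used here. The TPM unit was read from the deposited values, which reach the same sum in every library, so depth is unknown and no count test was possible; the number of libraries limits the precision.

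Identifiers were matched to GENCODE M21 symbols for 45143 of 45706 genes, and 563 had none. TPM were divided by a trimmed-mean factor per library (30% of ratios and 5% of levels trimmed), then log2(TPM + 1) was fitted with limma 3.58.1 in R 4.3.3 over 10 group means. The fit used all 30 libraries, genes averaging 1 TPM or more, a trended prior, robust moderation and Benjamini-Hochberg adjustment at 0.05. A fold change on this scale understates that of low genes. Interactions were contrasts in the same fit. Python 3.11.15, pandas 2.3.3, numpy 2.4.6 and matplotlib 3.10.9 were used for tables and plots. The fit was also run on simulated data with known changes, drawn with the same spread in every group and fitted without scaling. That run does not check the scaling or the unequal spread between these groups. No 2 libraries held identical values. Alternatives were the TPM as deposited, no filter, a pseudocount of 0.1, median-ratio scaling, the replicate number as a block, one variance per group, only the groups compared, and each library left out.

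The 44 genes and the other lists were chosen with earlier results of these data known. Genes named are the most abundant of each role, the largest called rise and fall of each comparison, members called against the majority, and every member where 5 or fewer were called; other genes named were chosen after their values were seen. From each other list, up to 4 genes with the smallest p could be named.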

Additional observations from a re-analysis of the deposited data

Results flagged for a closer look

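The age difference in the change from 2 days to large cells passed limma's test for 39 of 44 genes, against 25% of all tested. For the most abundant gene of each role it was -1.36 for Cdt1, -1.34 for Mcm6, -0.57 for Gins4, -1.37 for Pcna, -0.75 for Pold3, -2.28 for Rrm2, -2.48 for Lig1, -0.98 for Rpa1 and -0.61 for E2f1, and the most negative was -2.60 for Tk1, as 20 months minus 6 months on the log2 scale.

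The difference between the ages in the effect of the 519 mark passed for 3 genes, at -0.78 for Fen1, -0.71 for Gins4 and -0.84 for Mcm7, as 6 months minus 1 month on the log2 scale. This test was added after the data were seen. Fen1 lost the call when any 1 of 10 of the 12 libraries was left out, Gins4 without unmarked 1-month replicate 4, and all 3 with TPM as deposited.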

How the results depend on the processing

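Of 136 counts of called members under the alternatives 112 stayed within 1.5 times, as did 90 of 120 with 1 library left out. For no alternative is the share of all tested genes called given here. A count that moved therefore does not show that the members moved apart from other genes. With one variance per group and with only the groups compared, the counts were 4 and 2 (6 months, large cells against 2 days), 31 and 30 (2 days, 20 against 6 months), 0 and 0 (large cells, 6 against 1 month), 12 and 9 (large cells, 20 against 6 months), 0 and 0 (Terc-/- against wild type at 6 months), and 12 and 12 (519 mark by age). With 6-month wild-type large-cell replicate 2 left out, an alternative chosen after seeing the data, they were 9, 0 and 1 with only the groups compared (6 months, large cells against 2 days; large cells, 6 against 1 month; Terc-/- at 6 months) and 1, 8 and 8 in the whole fit (unmarked Terc-/- by age, 519 at 6 months, 519 mark by age). With TPM as deposited they were 10 (519-marked by age), 7 (519 at 1 month), 17 (519 at 6 months), 12 (gaiwei) and 0 (519 mark by age), and without the filter 6 (Terc-/- at 6 months). The cause was not tested.

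Leaving out single libraries gave 10 to 24 (6 months, large cells against 2 days), 6 to 14 (2 days by age), 1 to 17 (large cells, 6 against 1 month), 2 to 7 (Terc-/- at 1 month), 2 to 18 (Terc-/- at 6 months), 11 to 22 (519-marked by age), 13 to 17 (519 at 1 month), 0 to 7 (genotype by age) and 1 to 3 (519 mark by age). Among changes called in either of the fits compared, 10 signs turned, with TPM as deposited: Gins4 was -0.34 at 6 months (large cells against 2 days), Pola2 -0.0071, Fen1 -0.0043 and Rpa1 -0.17 with 519 at 1 month, and Orc6 -0.48, Cdt1 -0.012, Gins4 -0.058, Rfc2 -0.52, Rrm2 -0.12 and Tyms -0.019 with gaiwei. Another 79 members' changes called in neither turned sign with TPM as deposited, and such turns came to 341 over the other settings together.

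Deviations of same-numbered libraries from their group means had correlations of -0.60 to 0.33. With 3 libraries a group, these values cannot show whether the numbers pair samples. With the replicate block 40 members were called at 20 months (large cells against 2 days), 4 for Terc-/- at 1 month and 38 for the age difference, and every comparison's count stayed within 1.5 times. Depth is unknown, and 3 libraries a group limit what could be detected.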
